A study of Macaca mulatta with 32 samples.

Results

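Circular RNAs (circRNAs) of 8 protein tyrosine phosphatase genes were described in rhesus macaque brain, namely PTPRD, PTPRK, PTPRG, PTPRT, PTPRM, PTPRS, PTPN4 and PTPN12. A circRNA was counted to them where the host gene symbol in the table was one of these names, which held for 117 of 52828 circRNAs. They came from 7 of the 8 genes, since no circRNA carried the symbol PTPRK. A gene described as a kappa-like receptor phosphatase, with 2 circRNAs of 3 and 12 reads, and a gene described as a partial PTPRT, with 2 circRNAs of 9 and 17 reads, have no symbol in the table and were not counted.

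The 32 libraries cover 8 regions: prefrontal (PFC), posterior cingulate (PCC), temporal (TC), parietal (PC) and occipital (OC) cortex, hippocampal CA1, dentate gyrus (DG) and cerebellar cortex (CB). Each region has 4 libraries, named by the age in years and the sex of the animals: 10F and 10M (10 years, female and male) and 20F and 20M (20 years, female and male). All animals were healthy and were killed with an overdose of pentobarbital. Each library is a pool of RNA from 2 of the 8 animals, treated with RNase R, an exonuclease that digests linear RNA, and the same 4 pools recur in every region. Comparing 16 with 16 libraries by age or sex therefore rests on 4 pools, and the spread within a region includes the differences of age and sex.

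Protein tyrosine phosphatases remove phosphate from tyrosine residues and so oppose tyrosine kinases. The receptor types span the membrane and carry adhesion-like domains outside the cell. PTPRD and PTPRS bind synaptic adhesion partners across the cleft and liprins inside the axon terminal, PTPRM, PTPRT and PTPRK mediate adhesion between like molecules on neighbouring cells, and PTPRG binds contactins. The non-receptor enzymes act in the cytoplasm: PTPN4 carries FERM and PDZ domains and binds glutamate receptor subunits, and PTPN12 (PTP-PEST) acts on focal adhesion proteins such as BCAR1. A circRNA forms when a downstream splice donor joins an upstream acceptor, and 1 gene can give several circRNAs that differ in the 2 sites joined.

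A library held 18813 to 894932 back-splice reads, and 0.0644% to 0.239% of them fell in the phosphatase genes, 9868 reads in all. The CB 10F library was the shallowest, and a count of 0 there still allows 56.2 TPM (3 reads). TPM is the deposited unit, a number of back-splice reads times 1 constant per library and not divided by length, so that levels of different circRNAs compare their junction reads. The TPM of a library summed to between 107695 and 352188, so that levels in TPM also carry a difference of scale between libraries. Read numbers were inferred from the steps of the values, taking the smallest value above 0 in a library as 2 reads, the minimum of the circRNA caller. Before the results, 5 libraries stand apart: PFC 20F, PCC 20F, PC 10M, CA1 20M and DG 20M held 55.9 to 142 reads per circRNA found, against 8.24 to 43.7 in the other 27. None of the 3 microglial marker genes looked up had a circRNA in the table.

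PTPN4 was the richest of the genes, with 33 circRNAs and 3258 reads, found in all 32 libraries. PTPRT had only 7 circRNAs but 2473 reads, and PTPRM had 16 with 1425 reads. PTPN12 had 21 circRNAs and 1240 reads, PTPRG 23 and 964, and PTPRD 14 and 484. The gene identifiers in the table are ENSMMUG00000005610 (PTPN4), ENSMMUG00000001108 (PTPRT), ENSMMUG00000000768 (PTPRM), ENSMMUG00000009004 (PTPN12), ENSMMUG00000012487 (PTPRG), ENSMMUG00000006952 (PTPRD) and ENSMMUG00000011962 (PTPRS, chromosome 19). PTPRS was close to the detection limit, with 3 circRNAs and 24 reads in 4 libraries. Of the 117 circRNAs, 95 were annotated as exonic and 22 as intronic, and the intronic ones came from PTPRG (10), PTPN4 (5), PTPRM (5) and PTPN12 (2). As many as 57, or 48.7%, were found in a single library, against 55.1% of all circRNAs in the table. The published read filter kept 36 of the 117 (30.8%, against 32.3% of the table), and these 36 held 91.2% of the reads. No PTPRS circRNA was kept. The median distance between the joined sites was 15835 bases, against 6292 bases for all circRNAs with a host gene symbol.

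The phosphatase circRNAs of a gene often shared a back-splice site, as 99 of the 114 on the main strand of their gene did. The same share was not computed for other host genes. In PTPN4 on chromosome 13, 6 circRNAs began at position 126007704 and 5 ended at 126167073, and the 3 that ended at 126007858 held 64.5% of the gene's reads. In PTPN12 on chromosome 3 (minus strand), 4 circRNAs shared position 139767759 and held 61.9% of its reads. In PTPRG on chromosome 2 (minus strand), 4 intronic circRNAs shared position 74645211 with 31.5% of its reads, and 3 exonic ones shared 74399443 with 54.2%. PTPRS circRNAs shared no site. Another 3 circRNAs, with 19 reads, lay on the opposite strand of PTPN4, PTPN12 and PTPRG. Positions are those of the table, and the genome build is not given in the sources used here.

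**Figure D1:**
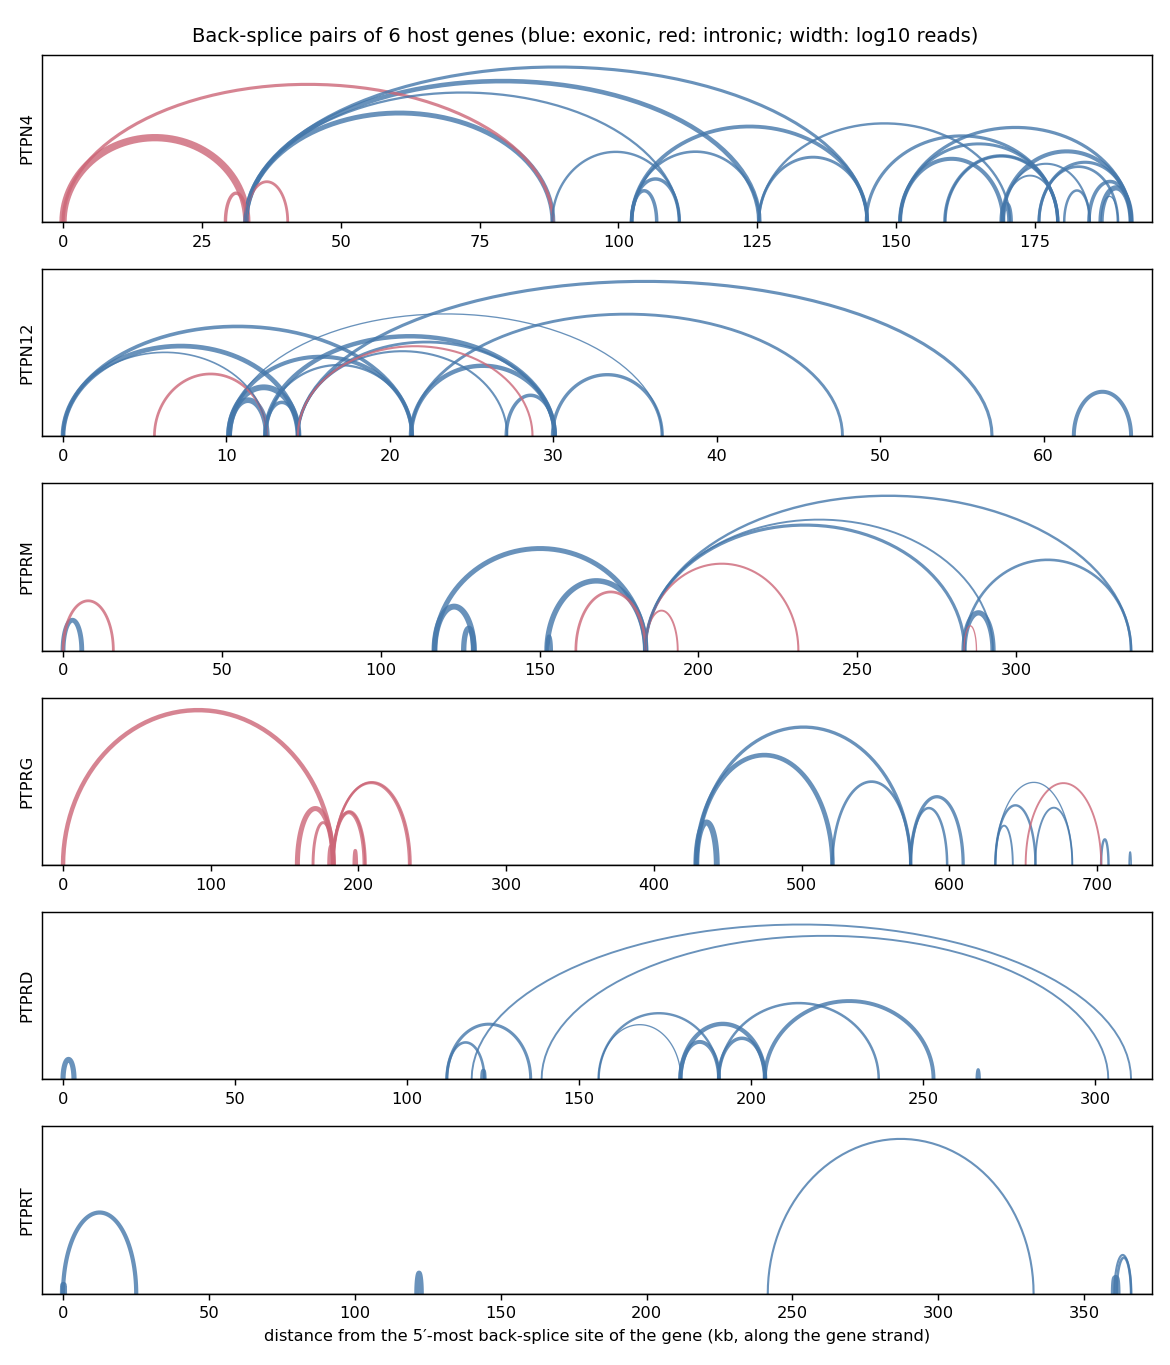
Each arc joins the 2 back-splice sites of 1 circRNA on the main strand of its gene, and the horizontal axis is the distance in kb from the gene's most 5′ back-splice site. Blue arcs are exonic and red arcs intronic, line width follows log10 of the reads over 32 libraries, and arc height follows the square root of the span within a gene. Arcs fan out from shared sites in PTPN4, PTPN12, PTPRM and PTPRG. The 7 PTPRT circRNAs lie in a few separate places, and 5 of them share a site with another.

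The leading circRNA, that with the most reads, differed in its weight among the genes. In PTPRT it was an exonic circRNA at 10:22327728-22328621 (plus strand, 894 bases between the sites) with 1640 reads, 66.3% of the gene, and the next, at 10:21967362-21967658, had 650. In PTPN4 it was a circRNA annotated as intronic at 13:125974772-126007858 (plus strand) with 2064 reads, 63.3% of the gene. It spans the exonic 13:126007704-126007858 and shares its end, so the annotation does not mean intron sequence alone. The exonic 13:126143880-126145281 with 325 reads and 13:126161669-126167073 with 193 followed. In PTPRM the reads were spread over 18:6267527-6279900 with 410, 18:6213430-6244483 with 245 and 18:6267527-6270709 with 217 (all minus strand). The leading circRNAs of PTPRG (2:74385614-74399443), PTPN12 (3:139763514-139767759) and PTPRD (15:68503228-68506415, plus strand) held 42.5%, 31.2% and 35.3% of their gene. In PTPRS 19:5139883-5142163 led with 10 reads in 2 libraries, and another had as many in 1 library.

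PTPRT showed the widest range of region means in TPM. The host total, the sum of TPM over all circRNAs of a gene, is given here in the order 10F, 10M, 20F and 20M. It was 116, 221, 173 and 87.0 TPM in TC, 159.7, 110.8, 82.6 and 143 in OC, and 160.25, 177, 60.2 and 78.8 in PCC. It was 90.7, 86.3, 164.5 and 67.7 in PC and 57.1, 27.7, 44.8 and 74.6 in PFC. Each of the 20 neocortical libraries thus held PTPRT circRNAs. Outside the neocortex the total was 21.3, 83.7, 0 and 25.1 TPM in CA1 and 30.1, 0, 12.3 and 0 in DG. In CB it was 0, 4.51, 0 and 0 TPM. The region means fell in the order TC (149 ± 59.8, SD, n = 4), OC (124 ± 34.3), PCC (119 ± 58.1), PC (102 ± 42.7), PFC (51.0 ± 19.8), CA1 (32.5 ± 35.8), DG (10.6 ± 14.2) and CB (1.13 ± 2.26). All 7 neighbouring pairs in this order overlapped, whereas every neocortical library lay above every CB library in the deposited values. The 0 of the shallow CB 10F still allows 56.2 TPM, so it cannot be placed below PFC 10M (27.7) or PFC 20F (44.8). As shares of pooled back-splice reads the highest regions stood in another order: OC (0.0732%), TC (0.0578%), PC (0.0441%) and PCC (0.0324%).

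**Figure D2:**
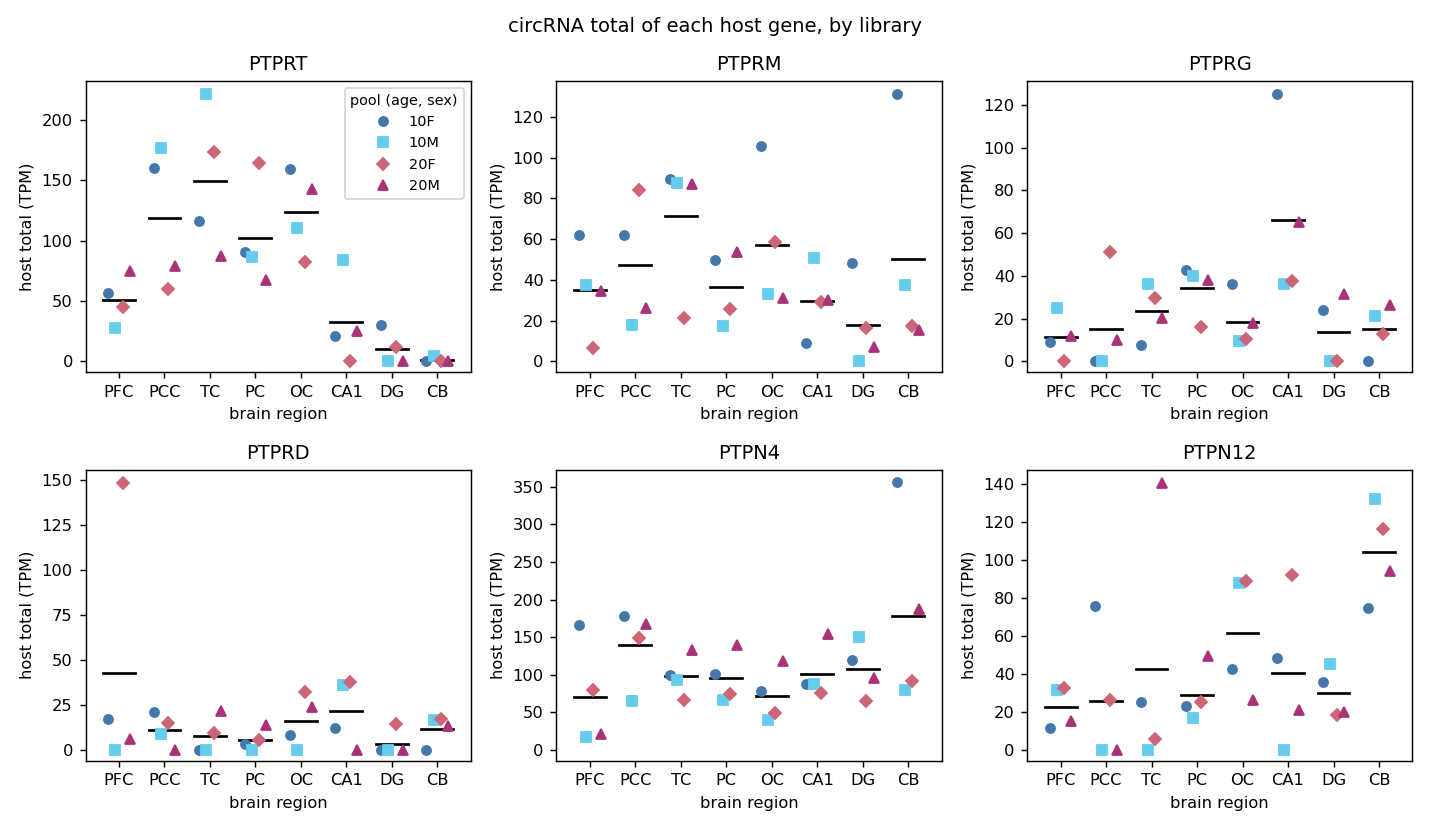
Each panel plots the host total in TPM (vertical axis, linear) of 1 gene in 32 libraries by brain region (horizontal axis), with a symbol for each pool and a bar at the mean of the 4 libraries. PTPRT is high in the 5 neocortical regions and near 0 in CB, PTPN12 has its highest mean in CB, and single libraries set the means of PTPRD in PFC and of PTPN4 and PTPRM in CB.

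PTPRT circRNAs were lower in CB than in the other 7 regions. The 4 CB libraries together held 3 PTPRT reads of 486881, and the other 28 held 2470 of 6672398, a share 60.1-fold lower (exact 95% interval 20.53 to 291.5, counting error only). It was 38.3-fold lower without CB 20F and, with 0 reads left in CB, at least 38.3-fold lower without CB 10M. The fitted difference was -4.09 on the log2 scale (limma on log2(TPM + 2.455), 95% interval -5.49 to -2.69, Benjamini-Hochberg adjusted p = 1.67e-05 over 4902 host genes). It understates the change, since CB is close to 0, and lay between -6.31 and -3.81 with an adjusted p from 9.22e-06 to 0.0359 in the 15 alternatives run. The adjusted p of 0.0359 came from an exact permutation over all choices of 4 of the 32 libraries. CB was below the mean of the other regions in 4 of 4 pools. Without CB 10F the difference was -3.96 (limma, adjusted p = 0.000312). In these bulk samples fewer cells of a type and less RNA per cell cannot be told apart. Marker genes of other cell types had few circRNAs. The 3 astrocyte markers were at 0 in all 4 CB libraries, where a 0 in CB 10F still allows 56.2 TPM, and summed to 0 to 34.5 TPM elsewhere. The 3 oligodendrocyte markers were at 0 in every CB, PFC, TC and DG library. The 3 neuronal markers summed to 0 to 42.1 TPM in CB, 0 to 39.2 in PC and 0 to 35.6 in PFC, and to 0 in all 4 DG libraries. The part of these cell types in the PTPRT differences was not tested.

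Both abundant PTPRT circRNAs were scarce in CB, although a 0 in CB 10F still allows 56.2 TPM, above the median of either outside CB. The leading one was at 0 in all 4 CB libraries and had a median of 50.0 TPM (0 to 211) in the other 28, which is at least 39.9-fold lower by pooled reads (floor of 3 reads over CB), and at least 25.4-fold lower without CB 10M or without CB 20F. Its fitted difference was -3.72 (limma, adjusted p = 0.0128 over 17050 circRNAs), and the call was lost in 5 of 15 alternatives, among them leaving out pool 1 (10F; -3.42, adjusted p = 0.203), 2 (10M; -3.64, 0.0814) or 3 (20F; -3.75, 0.155). The second one was at 4.51 TPM in CB 10M and 0 in the other CB libraries (fitted -1.65, adjusted p = 0.500).

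In DG the PTPRT total was also lower, with 11 reads of 422371 against 2462 of 6736908, 14.0-fold lower by pooled reads (exact 95% interval 7.83 to 28.1, counting error only). The fold rested on DG 20M, which held 273137 of the DG reads and no PTPRT read: without it the share was 4.96-fold lower (2.77 to 9.94), without DG 10F 23.1-fold and without DG 20F 27.03-fold. The fitted difference was -2.71 (95% interval -4.12 to -1.31, limma, adjusted p = 0.0293). The call was lost in 6 of 14 alternatives: leaving out pool 2 (10M; -2.02, adjusted p = 0.282) or 4 (20M; -2.22, 0.345), the 5 libraries that stand apart (-2.21, 0.203), a pseudocount of 0.2455 TPM (0.0781), voom (0.215) and the exact permutation (0.509). The median difference of all 4902 host genes in DG was -0.348.

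The 2 abundant PTPRT circRNAs did not keep a fixed ratio among libraries. Over the 22 libraries with at least 10 PTPRT reads, the leading circRNA held a median of 74.2% of them (0 to 100). It was at 0 of 48 reads in PFC 10M, 0 of 60 in TC 20M and 0 of 87 in CA1 20M, where the second circRNA had 40, 60 and 67 reads. The exact upper 95% limits of these shares are 7.40%, 5.96% and 4.15%, for counting error only. In contrast the leading circRNA was the only one found in PFC 20F, PCC 10M, PCC 20M and CA1 10M. In OC it held 80.5% to 91.5% in all 4 pools.

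**Figure D3:**
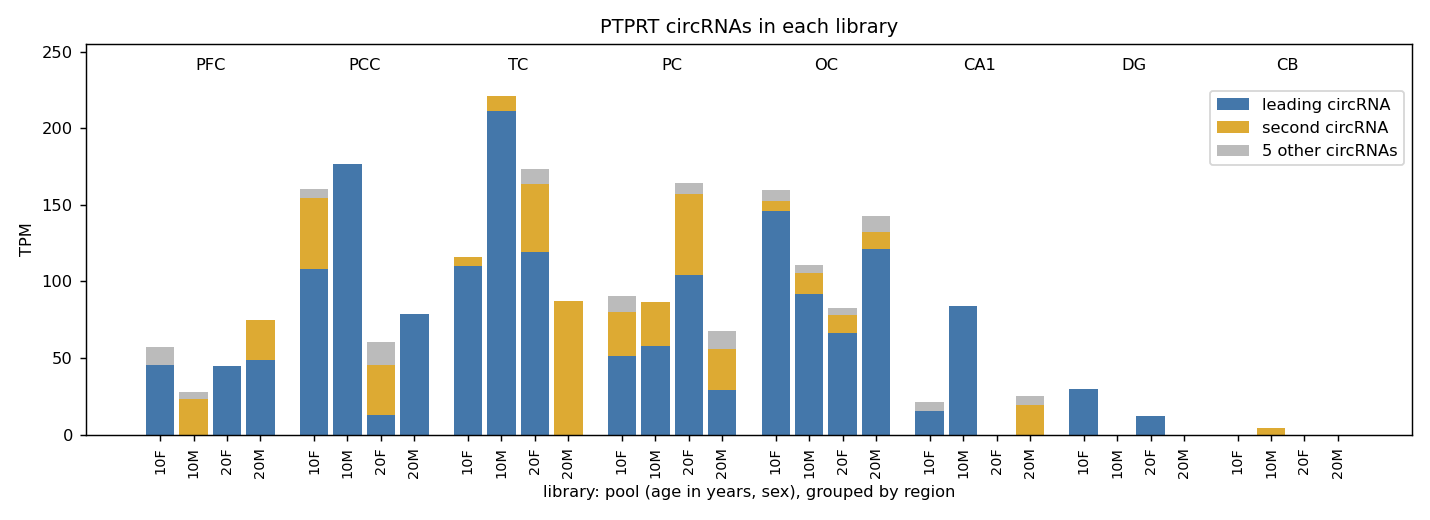
Stacked bars (linear axis from 0, TPM) give the leading, the second and the 5 other PTPRT circRNAs in each of 32 libraries, grouped by region and labelled by pool. The leading circRNA makes up most of the bar in OC, is missing from PFC 10M, TC 20M and CA1 20M, and the CB bars are empty but for 4.51 TPM of the second circRNA in 10M.

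PTPRM, the closest relative of PTPRT among the genes with counts, was found in 31 libraries. Its means ran from 71.3 ± 33.4 TPM in TC and 57.3 ± 34.8 in OC to 29.8 ± 17.1 in CA1 and 17.9 ± 21.2 in DG (SD, n = 4), and neighbouring regions overlapped throughout. In CB it stood at 131, 37.6, 17.4 and 15.4 TPM, and the 131 TPM of CB 10F came from 7 reads. The CB difference was 0.12 (95% interval -1.30 to 1.54, limma, adjusted p = 0.951), and that in DG was -1.72 (adjusted p = 0.369). Its circRNA 18:6267527-6270709 was at 0 in the 4 CB libraries and had a median of 6.53 TPM (0 to 42.0) elsewhere, without passing the test (limma, adjusted p = 0.432). A 0 still allows 56.2 TPM in CB 10F and 6.60 TPM in CB 20M, both above that median.

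PTPRG had its highest mean in CA1, where the libraries stood at 125, 36.4, 37.7 and 65.4 TPM, and its lowest in PFC (11.5 ± 10.3, SD, n = 4). The CA1 difference was 2.07 (95% interval 0.46 to 3.67) with an adjusted p of 0.453 in limma, and passed only with voom (adjusted p = 0.0422). In CA1 voom called 112 of all 4902 host genes, against 16 in limma. In CB PTPRG stood at 0, 21.0, 13.0 and 26.4 TPM (difference -0.51, limma, adjusted p = 0.810). PTPRD was low in most libraries, with a median of 8.56 TPM (0 to 148) outside CB, and the 148 TPM of PFC 20F, 1 of the 5 libraries that stand apart, came from 182 reads. In CB PTPRD stood at 0, 16.5, 17.4 and 13.2 TPM (difference 0.27, limma, adjusted p = 0.897). PTPRS reached 10.2 TPM at most, in PC 20M, and was not tested.

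Of the 6 genes tested, PTPN4 had the lowest ratio of the highest to the lowest region mean. Its means ran from 178 ± 128 TPM in CB and 140.0 ± 51.5 in PCC to 71.2 ± 69.6 in PFC (SD, n = 4), and all neighbours overlapped. The CB libraries stood at 356, 79.6, 91.3 and 187 TPM, the first from 19 reads, and the difference of 0.76 did not pass the test (95% interval -0.37 to 1.89, limma, adjusted p = 0.579). Its circRNA 13:126143880-126145281 was found in all 4 DG libraries, at 54.1, 72.7, 10.3 and 22.8 TPM, and had a mean of 2.76 ± 5.51 TPM in PC. Its DG difference was 2.24 (limma, adjusted p = 0.507).

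A longer PTPN4 circRNA that begins at the same site, 13:126143880-126167073, was found in 4 libraries. It stood at 7.51, 8.69 and 15.4 TPM in CB 10M, 20F and 20M, at 0 in CB 10F, and at 23.99 TPM in PFC 10F as the 1 library outside CB. With 29 reads outside CB it reached the 30 reads that the filter asks for only through its 20 CB reads, so that reads in CB were a condition for its being tested there. Its CB difference of 1.64 is therefore given as a description, although its adjusted p was under 0.05 in limma, and it was not under 0.05 in 6 of 14 alternatives.

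PTPN12 had its highest mean in CB. The CB libraries stood at 74.9, 132, 116 and 94.5 TPM, a mean of 104 ± 25.1 (SD, n = 4), against a median of 26.0 TPM (0 to 140.6) in the other 28, of which 5 reached the lowest CB value. That lowest value, of CB 10F, came from only 4 reads. By pooled reads PTPN12 was 3.32-fold higher in CB (exact 95% interval 2.88 to 3.83, counting error only). CB was above the mean of the other regions in 4 of 4 pools, in 10F by those 4 reads. The difference of 2.11 (95% interval 0.51 to 3.70) had an unadjusted p of 0.0102 and an adjusted p of 0.119 in limma, and passed with voom (2.20, adjusted p = 0.0356). In CB 15.5% of all host genes had an unadjusted p under 0.05 in limma. With voom the median CB difference of all 4902 host genes was 0.607, against -0.0695 in limma, and 165 of its 233 calls were higher. The next PTPN12 means were 61.6 ± 31.9 in OC and 42.9 ± 66.01 in TC, and the lowest were 25.6 ± 35.8 in PCC and 22.8 ± 10.97 in PFC.

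Counted over the genes in CB, 2 of the 36 kept circRNAs were called (limma, adjusted p under 0.05), 1 lower (the leading one of PTPRT) and 1 higher (13:126143880-126167073 of PTPN4, tested only through its CB reads), beside 2.4% of all 17050 circRNAs. The median difference of the 36 was -0.111, and that of all circRNAs was -0.138. Of the 6 host genes tested, 1 was called, PTPRT, against 5.24% of 4902 host genes, and the median was 0.191 against -0.0695. At an unadjusted p under 0.05 in limma, 7 of the 36 circRNAs passed in CB, 19.4% against 9.95% of all circRNAs. These 7 include the PTPN4 circRNA tested only through its CB reads. Of the 6 host genes 2 passed, 33.3% against 15.5% of all host genes. In DG 1 of 6 host genes was called, against 1.1% of all, and 0 of 36 circRNAs, against 0.158%.

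In the other 6 regions no phosphatase circRNA and no host gene was called by limma. The share called among all circRNAs was 0.211% in PFC, 0.111% in PCC, 0.17% in TC, 0.563% in PC, 0.0235% in OC and 0.158% in CA1. Among all host genes it was 0.306% in PFC, 0.0612% in PCC, 0.224% in TC, 0.306% in PC, 0.0204% in OC and 0.326% in CA1. At an unadjusted p under 0.05, 6 phosphatase circRNAs passed in PFC, 3 in PCC, 4 in TC, 3 in PC, 3 in OC, 1 in CA1 and 4 in DG. As shares of the 36 these were 16.7%, 8.33%, 11.1%, 8.33%, 8.33%, 2.78% and 11.1%, and the shares of all circRNAs were 8.04%, 9.27%, 5.15%, 10.2%, 3.62%, 8.82% and 5.7%. Among host genes PTPRT had the smallest p of the positive differences in TC (2.18, limma, adjusted p = 0.284), OC (1.93, 0.776), PCC (1.76, 0.600) and PC (1.58, 0.466). Each is taken against the mean of the other 7 regions, so the low PTPRT levels in CB and DG raise all of these differences. Of the negative differences, the smallest p belonged to PTPN4 in PFC (-1.05, limma, adjusted p = 0.732) and OC (-0.55, 0.993), PTPN12 in PCC (-1.64, 0.713) and TC (-0.90, 0.845), PTPRD in PC (-0.58, 0.889) and PTPRT in CA1 (-1.12, 0.800). With voom PTPRT was called higher in OC, TC and PC and PTPRG in CA1, and 2 circRNAs lower in PFC, the leading one of PTPN4 and 3:139765452-139767759 of PTPN12. Voom also called more of all 4902 host genes than limma: 31 against 1 in OC and 27 against 11 in TC. It called 97 against 15 in PC and 112 against 16 in CA1. Of all 17050 circRNAs it called 252 in PFC, 244 of them lower. Their median PFC difference was -0.978 with voom and -0.1 in limma. The exact permutation called no phosphatase gene or circRNA in these regions.

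The filter bears on the circRNAs that stood out as higher in 1 region. Of the 36 kept, 6 passed it only with the PFC libraries, 3 only with PCC, 2 only with TC, 2 only with CB and 1 each only with PC, OC, CA1 and DG. Both of the CB ones, 13:126077144-126085731 and 13:126143880-126167073 of PTPN4, also needed the PFC libraries. Reads in that region were thus a condition for their being tested. In PFC, PCC, TC, PC and CA1 the higher circRNA with the smallest p was such a circRNA, and its difference is a description. These were 15:68682634-68693863 of PTPRD in PFC (37 of 42 reads, 1.32), 3:139747826-139756630 of PTPN12 in TC (45 of 72 reads, 1.65) and 2:74307277-74399443 of PTPRG in CA1 (68 of 93 reads, 0.66). The intronic 2:74645211-74828202 of PTPRG in PCC (75 reads, 0.84) and 13:126125481-126144039 of PTPN4 in PC (48 reads, 0.92) were each found in 1 library.

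Among the other circRNAs with the smallest p in a direction, none passed the test. In PFC the leading circRNA of PTPN4 was at -2.96 (limma, adjusted p = 0.106), and in PCC that of PTPN12 at -2.12 (0.295). In TC 18:6104106-6113224 of PTPRM was at -0.80 (limma, adjusted p = 0.852), in PC 13:126143880-126145281 of PTPN4 at -1.40 (0.667) and in CA1 the leading PTPRM circRNA at -1.78 (0.527). In OC the leading PTPRT circRNA was at 2.47 (limma, adjusted p = 0.816) and 13:126007704-126062969 of PTPN4 at -0.65 (0.943). The second PTPRT circRNA was at 0 in all 4 DG libraries (-2.08, limma, adjusted p = 0.607).

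No member was called with age. The difference between 20 and 10 years was largest for PTPRD, at 1.19 (95% interval 0.07 to 2.31, limma, unadjusted p = 0.0382, adjusted p = 0.746). PTPRD stood at a median of 14.2 TPM (0 to 148, n = 16) at 20 years and 1.62 TPM (0 to 36.4, n = 16) at 10 years. The pool means were 7.77 TPM in 10F, 7.72 in 10M, 9.85 in 20M and highest in 20F, where the mean was 18.8 without PFC, so that the higher level lay mainly in 1 pool. The other host genes had differences from -0.62 (PTPRT) to 0.40 (PTPN12), each with an interval that includes 0. Of the circRNAs, 2 of 36 had an unadjusted p under 0.05, the leading one of PTPRD (1.18) and 13:126161669-126167073 of PTPN4 (-1.39), both with an adjusted p of 0.799 in limma, and 4.55% of all circRNAs had one. Among all features 0.00587% of circRNAs and 0.0204% of host genes were called with age, and voom called no member.

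Sex gave no call either. The difference between males and females ran from -0.97 for PTPRD (95% interval -2.09 to 0.15, limma, adjusted p = 0.809) to 0.42 for PTPRG (-0.65 to 1.48, adjusted p = 0.910), and 5 of 6 host genes were lower in males without passing the test. PTPN12 stood at a median of 23.9 TPM (0 to 140.6, n = 16) in males and 34.4 TPM (5.90 to 116, n = 16) in females. Among circRNAs 1 of 36 had an unadjusted p under 0.05, 10:22088567-22090215 of PTPRT (-0.85, limma, adjusted p = 0.796), against 4.68% of all circRNAs, and 0 of 6 host genes did, against 6.43% of all. Over all features 0.0176% of circRNAs and 0.0% of host genes were called with sex, and voom called no member.

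**Figure D4:**
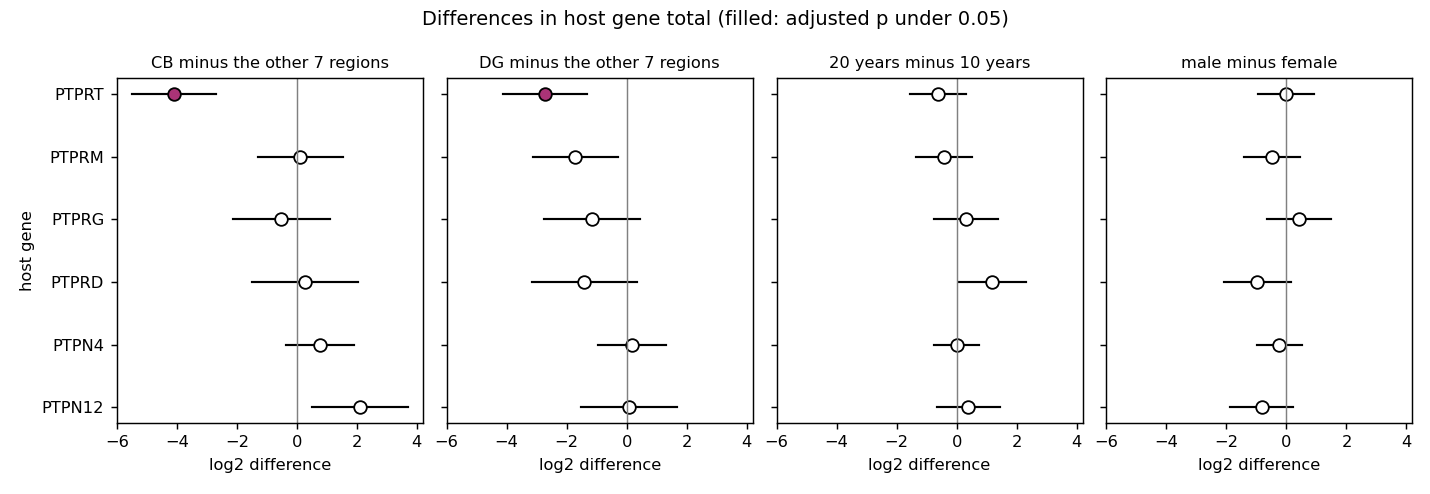
Points are the fitted log2 differences in host total of 6 genes and lines their 95% intervals, for CB and DG against the other 7 regions, 20 against 10 years and male against female, on 1 common linear axis. Filled points passed an adjusted p of 0.05 in limma: PTPRT in CB (-4.09) and in DG (-2.71).

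The share of a gene's reads held by its leading circRNA was compared between CB and the other regions by an exact permutation test over libraries with at least 10 reads of the gene. It could be tested for 3 genes. The share of the PTPN4 circRNA was 49.4% ± 22.6 (SD, n = 4) in CB and 51.8% ± 30.9 (n = 28) elsewhere (exact two-sided p = 0.885). That of PTPN12 was 29.7% ± 15.3 (n = 3) against 33.2% ± 31.6 (n = 21, exact p = 0.853), and that of PTPRG 11.1% ± 19.3 (n = 3) against 33.1% ± 26.3 (n = 17, exact p = 0.207). Adjusted over 998 host genes none passed, as for 0.0% of all, while 74 of the 998 had an unadjusted p under 0.05. Over libraries with at least 10 reads the share of the leading PTPN4 circRNA spanned 0% to 100%, so that only large differences could be detected with these libraries.

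Other phosphatases and binding partners were counted from lists chosen for their function, with earlier results of these data known. Of 29 further protein tyrosine phosphatases, 19 had circRNAs in the table, 128 in all with 7252 reads, led by PTPN11 with 1933, and 13 could be tested. None of the 13 was called in any region, with age or with sex (limma). Among all host genes 5.24% were called in CB, 1.1% in DG and at most 0.326% in any other comparison. Of 31 partners, 20 had circRNAs and 15 could be tested. Of these 15, 1 was called in CB and 1 in DG, beside the same shares of all host genes. No alternative was examined for the calls in these lists. CNTN5, a contactin of the family that PTPRG binds, was called lower in CB, at 0 in all 4 CB libraries against 34.96 ± 32.55 TPM (SD, n = 28) elsewhere, at least 22.1-fold lower by pooled reads (14.1-fold without CB 10M or CB 20F; limma, adjusted p = 0.00400). The 0 in CB 10F still allows 56.2 TPM. PPFIA2, a liprin that binds PTPRD and PTPRS, was called higher in DG, at 401 ± 300 TPM (n = 4) against 86.2 ± 62.4 (n = 28) elsewhere (difference 2.32, limma, adjusted p = 0.0291). The study had already reported a circRNA of PPFIA2 as specific to DG in the same samples, so this call is not independent of it.

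The host genes most like each member were sought among 1444 host genes with enough reads, by Pearson's r of log2 host totals over the 32 libraries after rescaling to the same total. The libraries share regions, pools and depth, so these values are descriptions. PTPRT was most like GALNT14 (r = 0.821) and FMN1 (0.807), and PTPRM most like HRASLS (0.738) and RALYL (0.677). PTPN4 was most like ILKAP (0.670) and DGKG (0.463), PTPN12 like PDCD4 (0.615) and LEMD3 (0.580), and PTPRG like DNM3 (0.607) and UBXN7 (0.590). PTPRD was most like ZNF585A (0.560) and GTF2F1 (0.557), and PTPRS like BEND6 (0.439) and ANKRD32 (0.389). Between the phosphatase genes themselves r was highest for PTPRT with PTPRM (0.462) and lowest for PTPRT with PTPN12 (-0.376).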

How the data were processed

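Total RNA of 2 animals per pool was depleted of ribosomal and linear RNA and sequenced, and per the labels and the study's methods reads were trimmed (cutadapt), aligned (BWA) and searched for circRNAs with at least 2 junction reads. The authors deposited 1 table with values in TPM. In each library these were whole multiples of 1 step (all values up to 20 reads, within 0.1 read), the smallest being 2 steps, from which back-splice reads were inferred. With the smallest value taken as 1 read, only 50.1% to 55.6% of the low values of a library were whole.

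The published filter, in which a circRNA counts as expressed from 3 recovered reads, kept 17050 circRNAs, with 4902 host genes: a region counted with 2 or more expressing libraries, and 2 such regions sufficed, as did 1 with 6 expressing libraries overall or a sum of 30 reads. Values as log2(TPM + 2.455), the median of the smallest values above 0, were fitted with limma 3.58.1 (R 4.3.3) for each region against the mean of the other 7, and for age (adjusted for region and sex) and sex (adjusted for region and age). Benjamini-Hochberg adjustment ran over all features. The planned count models were not run, since the deposited unit is TPM and the reads rest on that inference, and voom on the inferred reads was only an alternative. Libraries of a pool come from the same animals, which pairs them across regions, and same-pool libraries had a median correlation of 0.022 in their deviations from region means, against -0.00933 for other pools. Members and lists were chosen with earlier results of these data known. The members described in full were each gene's leading circRNA, those found in at least 16 libraries, and those called or with the smallest p. Fits were tested on simulated data with large changes in features of many reads and no likeness within pools. That test does not cover changes at low counts. A marker check of the cerebellar libraries is not reported here.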

Additional observations from a re-analysis of the deposited data

Results flagged for a closer look

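The highest or lowest library of a group of 4 stood apart from the other 3 in 10 of 52 groups with a range above 0 (Dixon's test at the 95% level), and chance flags about 1 in 20. In 6 of them the other 3 libraries were all at 0, so that any count stands apart: PTPRT in CB (10M, 4.51 TPM from 3 reads), PTPRD in DG (20F, 14.4 TPM from 7 reads), and PTPRS in PFC (10M, 2.31 TPM), PC (20M, 10.2 TPM), OC (10F, 5.92 TPM) and CB (20F, 2.17 TPM). PTPRD stood at 148 TPM in PFC 20F, with 0 to 17.4 TPM in the other PFC libraries. PTPN4 stood at 154 TPM in CA1 20M, with 75.4 to 88.4 TPM in the others, and both libraries are among the 5 with the most reads per circRNA. Low values were those of PTPRM in TC 20F (21.2 TPM against 87.0 to 89.4) and PTPRG in PC 20F (15.9 TPM against 38.3 to 42.8). What sets these libraries apart was not tested.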

How the results depend on the processing

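The call of PTPRT in CB held in each of 15 alternatives. The number of phosphatase circRNAs called in CB, 2 as reported, was 1 with circRNAs above 0 in at least 16 libraries, with voom and without the 5 libraries with over 95% clean reads, 0 with the exact permutation, 0 to 1 when 1 pool was left out, and 3 without CB 10F, which added 3:139765452-139767759 of PTPN12. With no filter it was 2, but PTPRT gave way to 3:139763514-139765547 of PTPN12. The number of host genes called in CB rose from 1 to 2 with voom. In the other 7 regions together the number of host genes called, 1 as reported, was 0 with a pseudocount of 0.2455 TPM, without the 5 libraries and with the exact permutation, 4 with voom, and 0 to 1 when 1 pool was left out, and that of circRNAs rose from 0 to 2 with voom. The counts with age and sex and for leading shares stayed at 0. Voom, the exact permutation and leaving out CB 10F were added after seeing the data, and the cause of these changes was not tested. With the pool as a block (replicate block) the numbers called were 2 circRNAs and 1 host gene in CB, 0 and 1 in the other regions and 0 with age and sex, and no call changed. The planned count models were not run.

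Uncalled differences changed sign as follows, with their ranges when 1 pool was left out. In CB, PTPRG spanned -0.92 to 0.34 (0.28 without CB 10F), PTPRM -0.28 to 0.47 (-0.15 at the same total, -0.31 with voom, -0.50 without CB 10F) and PTPRD -0.33 to 0.94 (0.99 without CB 10F). With age, PTPN12 spanned -0.0083 to 0.80, PTPN4 -0.74 to 0.75 (-0.18 without the 5 libraries), PTPRG -0.18 to 0.79 and PTPRM -1.10 to 0.23. With sex, PTPRT spanned -0.11 to 0.065 (0.036 without the 5 libraries), PTPN4 -0.99 to 0.50, PTPRG -0.070 to 0.90 and PTPRM -1.16 to 0.17. The leading share of PTPN12 in CB was 1.09 percentage points higher over libraries with at least 20 reads and 1.24 without pool 1, and that of PTPN4 spanned -14.8 to 6.76.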
